A study of Mus musculus with 6 samples.

Results

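The genes described here encode respiratory complex I, and they were every nuclear gene typed protein-coding in GENCODE mouse release M21 whose symbol begins with Nduf. The rule used symbols alone and no measured value. It found 46 of 21911 nuclear protein-coding genes, of which 38 carry a subunit symbol and 8 carry the assembly factor symbol Ndufaf. The data were 6 lists of H3K4me3 peaks from STHdh cells, immortalised striatal progenitor cells of the mouse, where H3K4me3 is the trimethylated lysine of histone H3 that marks active promoters. Q7SST was the STHdhQ7 line, which carries wild-type Huntingtin. The other 5 lists came from the STHdhQ111 line, in which an expanded glutamine tract is knocked into Huntingtin. All cells were kept without serum for 24 hours, with vehicle in Q7SST and Q111SST. The treated mutant cells received 10 uM of cyproheptadine (an antihistamine), loxapine (an antipsychotic), DKI (diacylglycerol kinase inhibitor II) or meclizine (an antihistamine). Each genotype was 1 cell line, so genotype and line cannot be told apart. Each condition had 1 list, whether the treated triplicates were pooled into it is not given in the sources used here, and differences between lists are therefore descriptions with no replicate check and no test.

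Complex I is the entry point of electrons into the respiratory chain. It takes electrons from NADH, passes them along iron-sulfur clusters to ubiquinone and pumps protons across the inner mitochondrial membrane. Core subunits carry out the catalysis, accessory subunits surround and stabilise the core, and assembly factors help to build the complex without staying in it. Some core subunits are encoded in mitochondrial DNA and were outside the rule. The genes of the nuclear part are spread over the genome, and NRF1, GABP and YY1 are transcription factors known to act at promoters of such genes.

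Promoter sequences came from RefSeq on GRCm38.p6 and spanned 250 bases before to 50 bases after each start. They were available for 40 of the 46 genes, as 42 promoters, and Ndufa2, Ndufa4l2, Ndufaf6, Ndufb9 and Ndufs1 were among the genes without an entry. The letters AAGATGGCG, which match YY1 sites, were in 6 of the 42 promoters (14.3%), against 1.93% of all 20150 promoters of the same length. All 6 matches lay after the start and on the gene's own strand, while among the 388 promoters of any gene with these letters 203 (52.3%) had them so placed. In 5 of the 6 genes, all but Ndufaf8, the ATG inside the letters was an annotated start codon. The 6 stretches are shown because the shared letters stand close to the start in genes at separate places of the genome, and capitals mark the match.

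Ndufa9, chr6:126849097-126849125, minus strand: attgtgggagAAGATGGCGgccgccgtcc
Ndufaf8, chr11:120098934-120098962, plus strand: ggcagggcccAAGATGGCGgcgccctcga
Ndufc1, chr3:51408915-51408943, minus strand: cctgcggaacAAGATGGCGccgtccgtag
Ndufs4, chr13:114388045-114388069, minus strand: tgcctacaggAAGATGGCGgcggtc
Ndufs6, chr13:73328433-73328459, minus strand: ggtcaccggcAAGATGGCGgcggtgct
Ndufs7, chr10:80249463-80249491, plus strand: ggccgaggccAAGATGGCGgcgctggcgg

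The matches began between base 11 (Ndufaf8) and base 36 (Ndufs4) after the RefSeq start. The genes belong to different parts of the complex. Ndufs7 is a core subunit, Ndufs4, Ndufs6, Ndufa9 and Ndufc1 are accessory subunits, and Ndufaf8 is an assembly factor. Both strands were searched for each motif, and a match describes letters and not a bound site.

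The palindrome-like letters GCGCATGCG of NRF1 were in 4 promoters (9.52%), against 2.45% of all promoters. In 3 of the 4 promoters the letters were read on both strands at overlapping places. They are shown, with the matched letters in capitals, because NRF1 is named for its part in the transcription of respiratory chain genes.

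Ndufa11, chr17:56717692-56717721, plus strand: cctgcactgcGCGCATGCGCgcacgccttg
Ndufa8, chr2:36049329-36049357, minus strand: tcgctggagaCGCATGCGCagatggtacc
Ndufaf4, chr4:24897960-24897989, plus strand: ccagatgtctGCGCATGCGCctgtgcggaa
Ndufaf5, chr2:140170652-140170681, plus strand: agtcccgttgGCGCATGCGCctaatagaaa

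In Q111SST the median strength percentile, a measure explained further on, was 91.5 (76.6 to 94.3) for the 6 genes with the YY1 letters and 87.6 (85.2 to 96.2) for the 4 with the NRF1 letters, beside 89.1 for the marked genes of the complex. The ETS letters CCGGAAG, which GABP can bind, were in 6 promoters (14.3% against 11.9% of all), and the median strength of their 6 genes was 94.5 (91.4 to 98.2) in Q111SST. The SP letters GGGCGG were in 22 (52.4% against 47.8%), the NF-Y letters CCAAT in 14 (33.3% against 37.8%) and the TATA letters TATAAA in 5 (11.9% against 12.1%). In this window these shares lay near those of all promoters. In 1 kb centred on the start the NF-Y letters were in 19 of the 42 (45.2% against 69.7% of all) and the SP letters in 34 (81.0% against 63.3%). The ERR letters TCAAGGTCA were in 0 of the 42 promoters, against 0.337% of all, and in 3 (7.14% against 1.66%) when 1 kb centred on the start was searched. Median GC content was 59.3% in the 42 promoters and 57.0% in all promoters, and the median ratio of observed to expected CpG was 0.83 against 0.59. All promoters include those of genes without an H3K4me3 peak, and no shares were taken over marked promoters alone. A trait of complex I promoters and a trait of marked promoters therefore cannot be told apart in these motif and CpG values. The upstream stretches of a strongly and a weakly marked gene are given for comparison, free of annotated exons, with CCAAT or its reverse ATTGG and GGGCGG or its reverse in capitals. Of the marked genes Ndufs8 had the third highest median strength over the lists, and Ndufaf3 the lowest.

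Ndufs8, chr19:3912775-3912974, minus strand: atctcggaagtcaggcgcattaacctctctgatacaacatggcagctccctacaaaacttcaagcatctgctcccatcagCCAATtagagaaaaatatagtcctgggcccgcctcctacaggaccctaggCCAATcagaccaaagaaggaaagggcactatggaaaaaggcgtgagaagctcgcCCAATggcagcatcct
Ndufaf3, chr9:108567437-108567532, minus strand: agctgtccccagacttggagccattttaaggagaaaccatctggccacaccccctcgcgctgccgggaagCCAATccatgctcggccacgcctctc

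A gene counted as marked if the list held a peak no more than 1 kb from one of its annotated transcript starts. In each of the 6 lists 45 of the 46 genes were marked, which is 97.8% (95% Wilson interval 88.7% to 99.6%, counting error only). Among all nuclear protein-coding genes the share marked was 58.4% in Q111SST and 59.9% in Q7SST, and 55.7% under DKI, 58.6% under meclizine, 58.1% under loxapine and 55.3% under cyproheptadine. No complex I gene was marked in some lists and unmarked in others. Of all 21911 genes, 11711 were marked in all 6 lists, and a single list marked between 12126 and 13121. Peaks scored under the pooled median of the 6 lists were then left out. This kept 41 genes marked with cyproheptadine, 42 with DKI and 45 in each other list. The shares of all genes marked were 46.6% in both and 51.8% to 53.6% in the others. Ndufa1, Ndufaf3 and Ndufb10 lost their mark in both and Ndufs1 with cyproheptadine. This cut sets raw scores of different lists side by side, and whether their scales match is not known. The share was 100.0% in each list for the 78 mitochondrial ribosomal protein genes and lay between 83.6% and 89.1% for 55 nuclear genes of complexes II to V. A list holds peaks from a mixture of cells, so a mark in fewer cells and a weaker mark in each cell cannot be told apart.

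Ndufa4l2, a relative of Ndufa4 that is known as a hypoxia-induced gene, was the gene without a mark (chr10:127514967-127517154, plus strand). Its nearest peak ended 1675 bp in Q111SST and 1591 bp in Q7SST, and 2018 bp under DKI, 1588 bp under meclizine, 1720 bp under loxapine and 1654 bp under cyproheptadine from its only annotated start. That peak lay upstream of the gene in each list, was between 1254 bp and 1687 bp wide, and stood between percentiles 67.2 and 75.6 of its list. No other protein-coding gene had a start nearer to it. Counting peaks within 5 kb of a start brought the marked genes to 46 of 46 in each list.

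The strength of a gene's mark was taken from its strongest peak in that window, as the percentile of that peak's deposited score within the whole list. The median over the 45 marked genes was 89.1 in Q111SST and 88.6 in Q7SST, and 81.8 under DKI, 88.1 under meclizine, 86.8 under loxapine and 83.9 under cyproheptadine. The exact 95% interval of this median, which covers the spread between genes only, was 83.2 to 90.0 in Q7SST, 85.2 to 92.6 in Q111SST, 80.0 to 87.1 under cyproheptadine, 84.3 to 92.6 under loxapine, 77.7 to 86.9 under DKI and 83.8 to 91.1 under meclizine. The median over all marked genes was 82.6 in Q111SST and 80.4 in Q7SST, and 76.3 under DKI, 80.3 under meclizine, 83.0 under loxapine and 79.5 under cyproheptadine. In each list the median of all marked genes lay below the interval of the complex I median. Ranked only among the strongest peaks of marked promoters, the median complex I gene stood at percentile 67.9 in Q111SST and 70.2 in Q7SST, and 60.8 under DKI, 68.7 under meclizine, 59.6 under loxapine and 59.8 under cyproheptadine. Between 30 and 35 of the 45 genes lay above the median promoter, and between 2 and 6 lay among the weakest 25%. The genes differed from each other more than 1 gene differed between lists. The SD of the gene medians was 10.5 points and the median SD of a gene across the 6 lists was 4.1 points. The same held for all 11711 genes marked in the 6 lists, with 15.3 and 5.4 points.

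**Figure D1:**
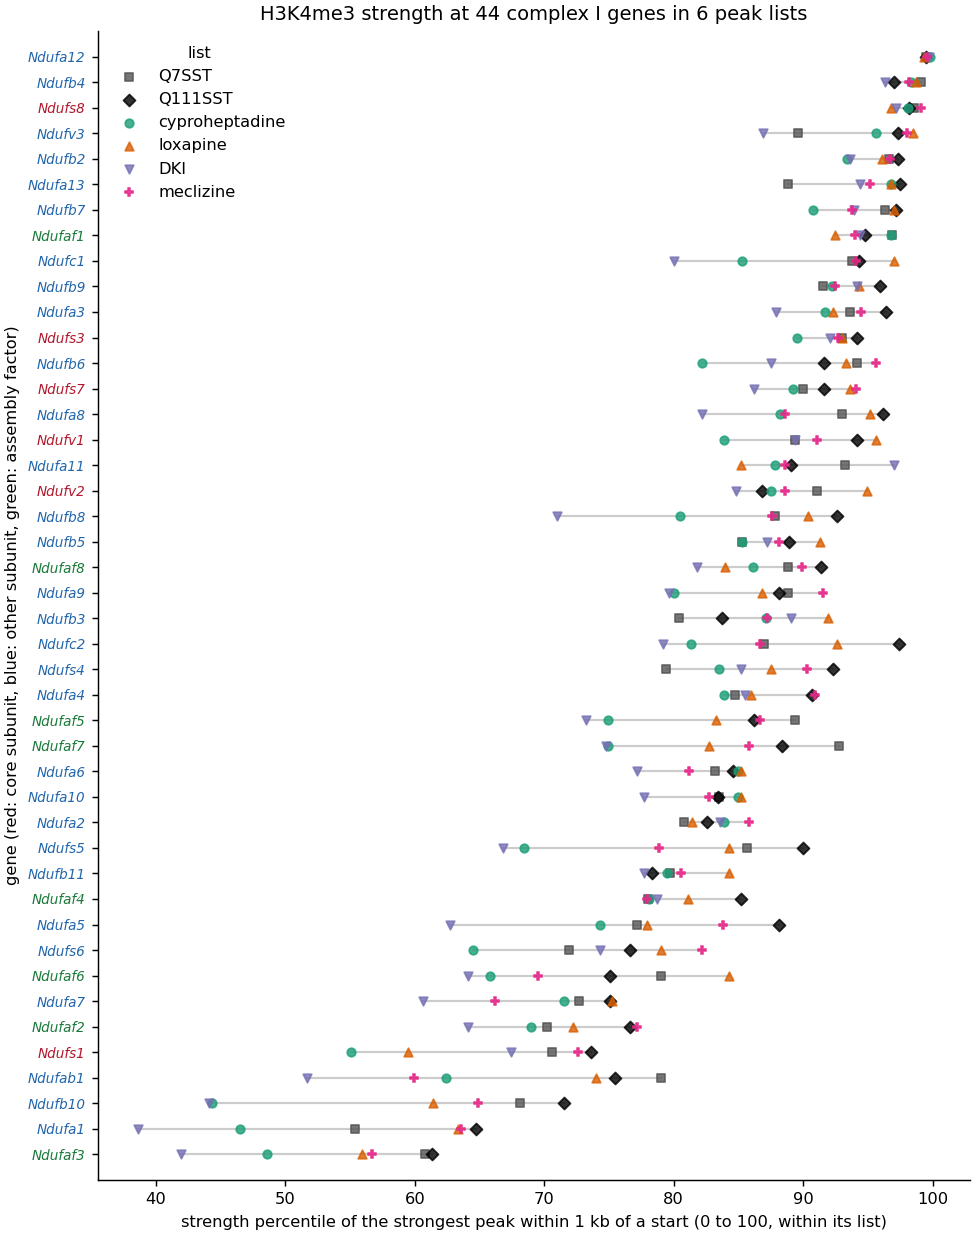
Strength percentile (horizontal axis, 0 to 100 within each list) of the strongest peak at 44 of the 45 marked complex I genes (rows, ordered by median), with 1 symbol per list and a grey line over the range. Ndufa12 stayed between 99.3 and 99.8, while Ndufa1 ran from 38.6 with DKI to 64.7 in Q111SST.

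The core subunits include those that hold the flavin and the iron-sulfur clusters. All 7 nuclear core genes were marked in each list, with a median of 91.6 in Q111SST and 90.0 in Q7SST, and 86.2 under DKI, 91.1 under meclizine, 93.6 under loxapine and 87.5 under cyproheptadine. Ndufs8, which holds iron-sulfur clusters near the quinone site (chr19:3908863-3912774, minus strand), had percentiles of 98.2 in Q111SST and 98.6 in Q7SST, and 97.2 under DKI, 99.1 under meclizine, 96.8 under loxapine and 98.1 under cyproheptadine. Its 6 values lay between 96.8 and 99.1. Ndufs7, its neighbour in the complex (chr10:80249121-80256794, plus strand), stood at 91.6 in Q111SST and 90.0 in Q7SST, and 86.2 under DKI, 94.1 under meclizine, 93.6 under loxapine and 89.2 under cyproheptadine. Ndufs3, a structural core protein of the same arm, stood at 94.2 in Q111SST and 93.0 in Q7SST, and 92.1 under DKI, 92.7 under meclizine, 93.0 under loxapine and 89.5 under cyproheptadine. For both genes DKI or cyproheptadine gave the lowest value.

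Ndufv1, which binds NADH and flavin, stood at 94.2 in Q111SST and 89.4 in Q7SST, and 89.4 under DKI, 91.1 under meclizine, 95.6 under loxapine and 83.9 under cyproheptadine. Ndufv2, its iron-sulfur partner, stood at 86.8 in Q111SST and 91.1 in Q7SST, and 84.8 under DKI, 88.6 under meclizine, 94.9 under loxapine and 87.5 under cyproheptadine. Ndufs1, the large iron-sulfur subunit of the NADH-oxidising arm (chr1:63143596-63176833, minus strand), was the weakest of the core genes described in each list, at 73.6 in Q111SST and 70.6 in Q7SST, and 67.4 under DKI, 72.6 under meclizine, 59.5 under loxapine and 55.1 under cyproheptadine. The other core genes described did not overlap with Ndufs1, since their lowest value was 83.9.

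Among 29 accessory subunits, which include neither Ndufa4 nor Ndufa4l2, the median strength was 90.0 in Q111SST and 87.0 in Q7SST, and 82.2 under DKI, 88.1 under meclizine, 90.4 under loxapine and 85.0 under cyproheptadine. Ndufa12, an accessory subunit at the NADH-oxidising arm (chr10:94198720-94221443, plus strand), was the strongest gene of the complex in each list, at 99.5 in Q111SST and 99.5 in Q7SST, and 99.7 under DKI, 99.6 under meclizine, 99.3 under loxapine and 99.8 under cyproheptadine. Ndufb4, a subunit of the membrane arm, followed by median over the lists, at 97.0 in Q111SST and 99.1 in Q7SST, and 96.3 under DKI, 98.2 under meclizine, 98.7 under loxapine and 98.3 under cyproheptadine. Ndufa12 and Ndufb4 stood above 96 in each list.

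The weakest accessory gene by median over the lists was Ndufa1, an X-linked subunit of the membrane arm (chrX:37187588-37191163, minus strand), at 64.7 in Q111SST and 55.4 in Q7SST, and 38.6 under DKI, 63.6 under meclizine, 63.3 under loxapine and 46.5 under cyproheptadine. Ndufb10, another membrane arm subunit (chr17:24722060-24724478, minus strand), stood at 71.5 in Q111SST and 68.1 in Q7SST, and 44.1 under DKI, 64.9 under meclizine, 61.4 under loxapine and 44.3 under cyproheptadine. Both genes had their lowest values with DKI and cyproheptadine. Ndufab1, the mitochondrial acyl carrier protein, stood at 75.5 in Q111SST and 79.0 in Q7SST, and 51.7 under DKI, 59.9 under meclizine, 74.0 under loxapine and 62.4 under cyproheptadine. Ndufa4, which carries a complex I symbol but is now regarded as a subunit of cytochrome c oxidase, stood at 90.7 in Q111SST and 84.7 in Q7SST, and 85.5 under DKI, 90.9 under meclizine, 86.0 under loxapine and 83.9 under cyproheptadine, within the range of the accessory genes.

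All 8 assembly factors were marked in each list. Their median strength was 85.7 in Q111SST and 83.9 in Q7SST, and 74.0 under DKI, 81.8 under meclizine, 83.0 under loxapine and 74.9 under cyproheptadine, and the subunit median exceeded it by 5.0 points in Q111SST and 4.6 points in Q7SST, and 10.8 points under DKI, 6.7 points under meclizine, 8.3 points under loxapine and 10.1 points under cyproheptadine. An interval around this difference, with the half-width of the exact 95% interval of the assembly factor median, reached below 0 in each list and ran from -11.7 to 21.7 points in Q111SST and from -15.5 to 37.0 under DKI. The classes overlapped in each list, and between 8 and 13 of the 37 marked subunits lay below the median assembly factor. With 8 genes the assembly factor median rests on few values, which ran from 41.9 to 94.4 with DKI.

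Ndufaf1, which acts in the assembly of the membrane arm (chr2:119655446-119662827, minus strand), was the strongest assembly factor, at 94.8 in Q111SST and 96.9 in Q7SST, and 94.4 under DKI, 94.0 under meclizine, 92.5 under loxapine and 96.8 under cyproheptadine. Ndufaf3 (chr9:108565537-108567434, minus strand), which acts on the arm that holds the quinone site, was the weakest gene by median strength, at 61.3 in Q111SST and 60.8 in Q7SST, and 41.9 under DKI, 56.7 under meclizine, 55.9 under loxapine and 48.6 under cyproheptadine. Ndufaf4, which works together with Ndufaf3, stood at 85.2 in Q111SST and 78.0 in Q7SST, and 78.7 under DKI, 77.9 under meclizine, 81.1 under loxapine and 78.1 under cyproheptadine. The pair thus differed by over 15 points in each list. Ndufaf2, a late-acting chaperone related in sequence to Ndufa12, stood at 76.6 in Q111SST and 70.2 in Q7SST, and 64.1 under DKI, 77.2 under meclizine, 72.2 under loxapine and 69.0 under cyproheptadine. It lay at least 22 points below Ndufa12 in each list.

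Ndufaf5, an enzyme that modifies Ndufs7, stood at 86.2 in Q111SST and 89.4 in Q7SST, and 73.2 under DKI, 86.7 under meclizine, 83.3 under loxapine and 74.9 under cyproheptadine. Ndufaf8, a partner of Ndufaf5, stood at 91.4 in Q111SST and 88.8 in Q7SST, and 81.8 under DKI, 89.9 under meclizine, 84.0 under loxapine and 86.1 under cyproheptadine. Ndufaf7, a mitochondrial methyltransferase, stood at 88.4 in Q111SST and 92.8 in Q7SST, and 74.8 under DKI, 85.8 under meclizine, 82.7 under loxapine and 74.9 under cyproheptadine. Ndufaf6, a factor of early assembly, stood at 75.1 in Q111SST and 79.0 in Q7SST, and 64.1 under DKI, 69.5 under meclizine, 84.3 under loxapine and 65.8 under cyproheptadine. Ndufaf5, Ndufaf6 and Ndufaf7 spread widely across the lists, and Ndufaf8 stayed between 81.8 and 91.4.

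Complex I assembly genes without the symbol were followed as a second list, and 12 of them were found in the annotation, while Coa1 was not matched. All 12 were marked in each list, with a median strength of 92.6 in Q111SST and 90.1 in Q7SST, and 84.8 under DKI, 90.2 under meclizine, 91.4 under loxapine and 89.2 under cyproheptadine, above the median of the 8 Ndufaf genes in each list. Aifm1, a flavoprotein also known for its part in cell death, stood between 70.9 and 82.0 and was the weakest of the 12 in Q111SST and under cyproheptadine, loxapine and meclizine, and Dmac2 stood between 94.7 and 98.0. Genes of complexes II to V had medians of 87.6 in Q111SST and 87.0 in Q7SST, and 80.5 under DKI, 87.8 under meclizine, 89.6 under loxapine and 84.1 under cyproheptadine. Mitochondrial ribosomal protein genes had medians of 89.7 in Q111SST and 88.0 in Q7SST, and 82.6 under DKI, 88.3 under meclizine, 88.0 under loxapine and 82.2 under cyproheptadine. In Q111SST these medians of 87.6 and 89.7 lay within the interval of the complex I median, 85.2 to 92.6.

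**Figure D2:**
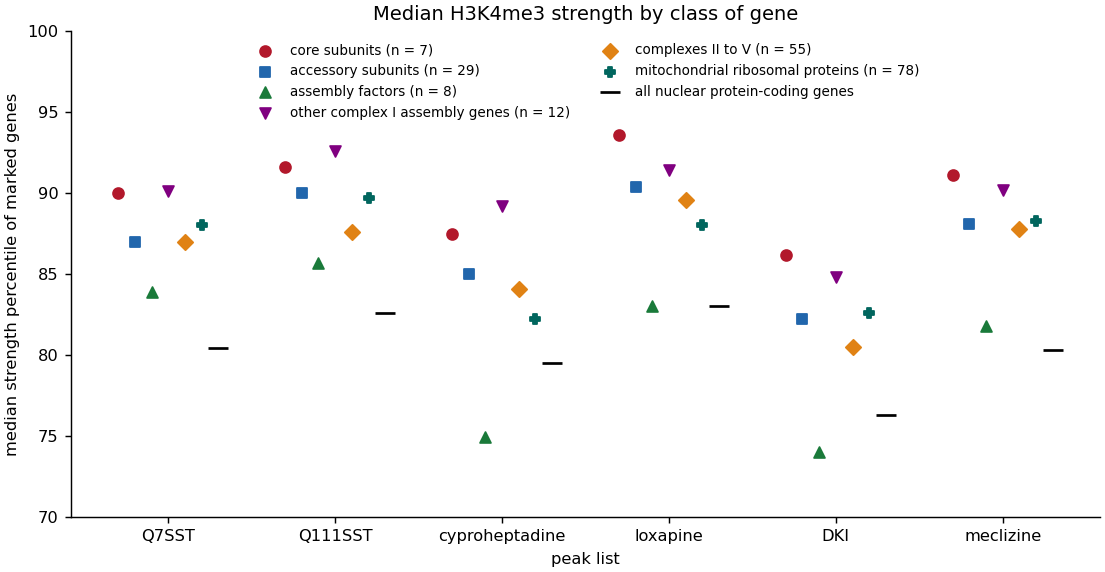
Median strength percentile (vertical axis, from 70 to 100) of marked genes by class and list (horizontal axis), with black bars for all nuclear protein-coding genes. Core subunits stood above assembly factors in each list, and the assembly factor medians of 74.9 with cyproheptadine and 74.0 with DKI lay below the black bars of 79.5 and 76.3.

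The marks at complex I genes were single peaks over the start. Between 44 and 45 of the 45 marked genes had 1 peak in the window, against 82.0% to 86.0% of all marked genes, and a start was covered in 43 or 44 of the 45, against 82.0% to 89.4%. Peaks overlapped an exon of the gene in 45 of 45 genes, coding sequence in 40 and an intron in 41, and reached beyond the gene in 41. These overlaps were not counted over all marked genes, so they describe complex I peaks without a comparison. Ndufa13, also known as a regulator of cell death (chr8:69894180-69902558, minus strand), was the gene whose GENCODE start no peak covered in any list. Ndufb10 joined it in Q7SST and under loxapine and cyproheptadine. In Q111SST the strongest peak of Ndufa13 lay wholly inside the gene, at chr8:69900811-69901976, and the GENCODE start at 69902558 stood outside it. The RefSeq start of Ndufa13, used for its promoter sequence, was at 69902020. It lay nearer to that peak, and inside the meclizine peak at chr8:69900866-69902024.

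Median width of the strongest peak was 1857 bp in Q111SST and 1727 bp in Q7SST, and 1476 bp under DKI, 1682 bp under meclizine, 1809 bp under loxapine and 1710 bp under cyproheptadine. The 95% interval of the median over genes was 1548 to 1960 bp in Q7SST, 1690 to 1987 bp in Q111SST, 1422 to 1852 bp under cyproheptadine, 1619 to 2111 bp under loxapine, 1373 to 1658 bp under DKI and 1533 to 1880 bp under meclizine. Over all marked genes the median was 1709 bp in Q7SST, 1795 bp in Q111SST, 1545.5 bp under cyproheptadine, 1720 bp under loxapine, 1461 bp under DKI and 1672 bp under meclizine. In each list this lay within the interval of the complex I median. In each list the median peak reached further into the gene than upstream, by 1117 bp and 618 bp in Q111SST. Where a peak covered several annotated starts, extents were measured from the most upstream of them. This choice lengthens the extent into the gene and shortens the one upstream.

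The 3 widest marks by median over the 6 lists were those of Ndufb11, Ndufb3 and Ndufs1. Ndufb11, an X-linked subunit of the membrane arm (chrX:20615326-20617619, minus strand), had widths of 2953 bp in Q111SST and 2495 bp in Q7SST, and 2531 bp under DKI, 2730 bp under meclizine, 2783 bp under loxapine and 2519 bp under cyproheptadine. For Ndufb3, a small membrane arm subunit (chr1:58586384-58595964, plus strand), the widths were 2698 bp in Q111SST and 2786 bp in Q7SST, and 1935 bp under DKI, 2747 bp under meclizine, 2211 bp under loxapine and 2076 bp under cyproheptadine. Ndufs1 measured 2476 bp in Q111SST and 2252 bp in Q7SST, and 2060 bp under DKI, 2079 bp under meclizine, 2915 bp under loxapine and 2556 bp under cyproheptadine. Each of these genes has another protein-coding gene starting on the opposite strand nearby, Rbm10 at 3 bp from Ndufb11, Fam126b at 61 bp from Ndufb3 and Eef1b2 at 3 bp from Ndufs1. The narrowest by the same measure were Ndufa13 with a median of 1151 bp, Ndufb10 with 1184 bp and Ndufb7, a membrane arm subunit, with 1225.5 bp, and none of them has a divergent neighbour within 1 kb.

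**Figure D3:**
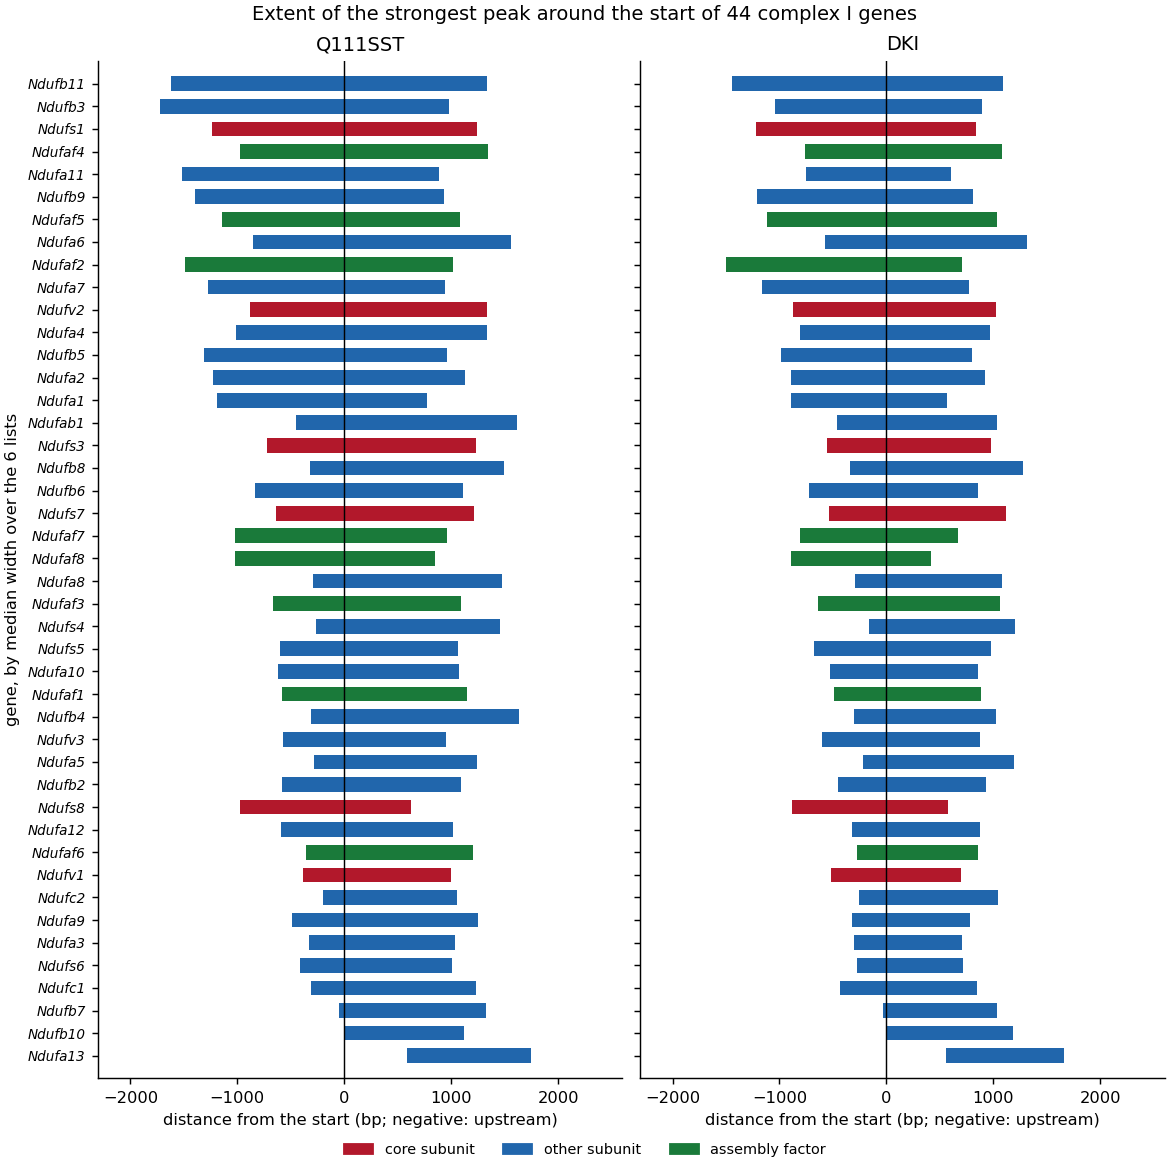
Extent of the strongest peak around a start (horizontal axis, bp, negative upstream) for 44 of the 45 marked complex I genes ordered by median width, in Q111SST and DKI. The start is the nearest or, where several are covered, the most upstream of them. Peaks of Ndufb3, Ndufb11 and Ndufa11 reached 1720, 1621 and 1513 bp upstream in Q111SST, and that of Ndufa11 reached 748 bp upstream with DKI.

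Divergent promoters were common in the complex. Of the 46 genes, 18 (39.1%) had a protein-coding gene starting within 1 kb on the opposite strand and pointing away, against 9.46% of all genes and 15.2% of all genes marked in Q111SST. In all, 22 genes (47.8% against 14.5%) had some other protein-coding start within 1 kb, and for these the peak cannot be assigned to 1 gene. In Q111SST the 18 divergent genes had a median width of 2224 bp with 1169 bp upstream, and the 23 marked genes with no neighbouring start had 1690 bp with 581 bp upstream. All genes showed a like pattern, with 2124.5 bp and 1714 bp. Strength did not follow width, since the medians in Q111SST were 87.2 for divergent and 91.6 for lone complex I genes, against 85.2 and 81.6 for all genes.

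Within the complex, width and strength were negatively related. Spearman's rho between width and strength over the 45 genes was -0.45 in Q111SST and -0.32 in Q7SST, and -0.26 under DKI, -0.36 under meclizine, -0.42 under loxapine and -0.17 under cyproheptadine, and over all marked genes it lay between 0.10 and 0.15. These are descriptions across genes, which share a library and in part a peak. Over all marked genes in Q111SST the median width was 470 bp below percentile 10, 2019.5 bp between percentiles 70 and 80, and 1742 bp above 90, so that width also declined at the strongest promoters in general.

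**Figure D4:**
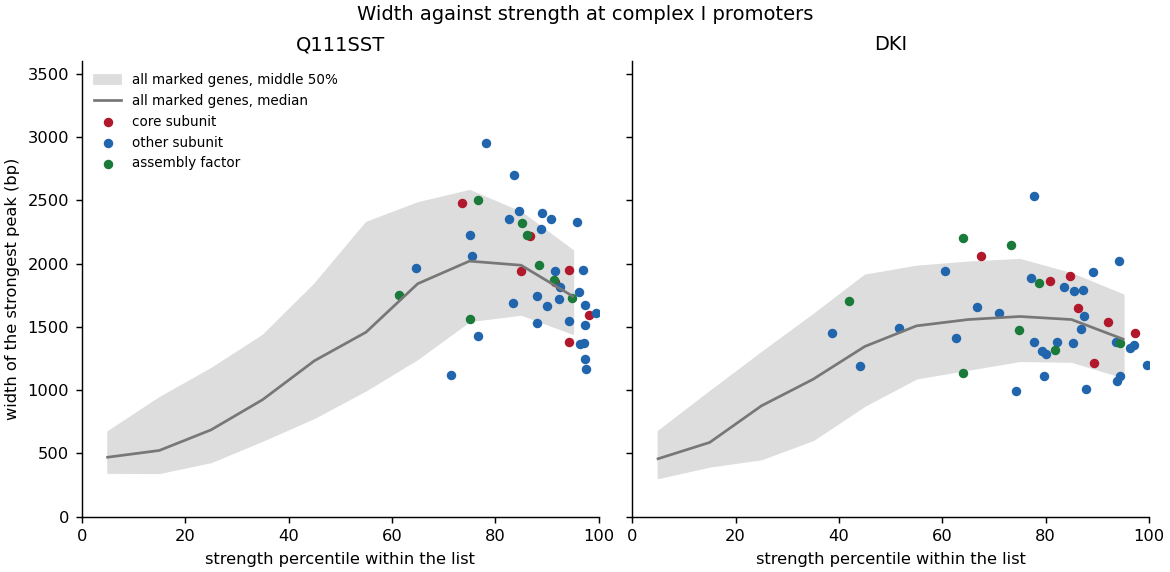
Width in bp (vertical axis) against strength percentile (horizontal axis) of the strongest peak at complex I genes (points) in Q111SST and DKI, over the median and middle 50% of all marked genes in bins of 10 percentile points. In Q111SST most points lie above percentile 70, with widths from 1123 bp to 2953 bp.

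Each list was then compared with Q111SST, which all 5 comparisons share. Since there was no test, a rule of size was used, a difference of at least 10 percentile points or a width at least 1.5 times larger or smaller. In Q111SST 22 of the 45 genes (48.9%, against 29.7% of all marked genes) stood above percentile 90 and could not be 10 points higher in another list, so the counts of genes higher on this scale are limited by that ceiling. In Q7SST, the comparison of genotypes, the median difference of the 45 genes was -1.82 points, against -1.04 for all 12333 genes marked in both lists. Of the 45, 3 were at least 10 points lower (13.0% of all genes) and 0 at least 10 points higher (8.86%). Ranked among promoters 10 were lower (17.8%) and 8 higher (22.4%), and under the stricter score 6 were lower (17.3%) and 6 higher (20.7%). For width the counts were 0 narrower (6.88%) and 0 wider (5.82%), and the median width ratio was 0.952 against 0.973 for all genes. Ndufs4, an accessory subunit of the NADH-oxidising arm, differed most, with 79.4 in Q7SST and 92.3 in Q111SST. Ndufa5, a small accessory subunit, differed by -10.9 (77.2 against 88.1) and Ndufc2, a membrane arm subunit, differed by -10.4. The largest differences upward were 4.4 for Ndufaf7, 4.3 for Ndufv2 and 4.1 for Ndufa11.

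The cyproheptadine list held 33721 peaks. The median difference of complex I genes was -6.37 points, against -3.74 for all genes. Of the 45 genes, 13 were at least 10 points lower (25.9% of all) and 0 higher (3.48%). The count lower was 8 with lists of equal size (17.2% of all) and 23 of those left under a stricter score (44.4%), and ranked among promoters 19 genes were lower (26.9%) and 4 higher (16.3%). Ndufb10 differed by -27.2 points, Ndufs5, an accessory subunit, by -21.6 and Ndufs1 by -18.5. Differences upward were small, 3.4 for Ndufb3, 2.0 for Ndufaf1 and 1.5 for Ndufa10, an accessory subunit. Width was past the limit in 0 genes narrower (16.0%) and 0 wider (0.979%), with a median ratio of 0.889 against 0.887 for all genes.

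The loxapine list, the longest with 45564 peaks, had the median width ratio closest to 1. Its median difference in strength was -1.33 points, against -0.36 for all genes, and 3 genes were at least 10 points lower (9.41%) and 0 higher (7.09%). With lists of equal size 8 genes were lower by that much (22.3% of all), and the median difference was -3.93, against -2.57 for all genes. Ranked among promoters 11 were lower (18.6%) and 4 higher (17.4%). Ndufs1 differed by -14.0, Ndufa5 by -10.2 and Ndufb10 by -10.1, while Ndufaf6 differed by 9.2 and Ndufb3 and Ndufv2 by 8.2 each. The median width ratio was 0.996 against 0.987, with 0 genes past the limit narrower (8.51%) and 0 wider (2.52%).

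DKI had the shortest list, with 30758 peaks against 40406 in Q111SST, and it held the lowest percentile of 25 of the 45 genes (44.9% of all genes). The median difference of complex I genes was -6.14 points, close to -6.59 for all genes, and 41 of the 45 genes were lower (78.3% of all genes). At least 10 points lower were 16 genes (38.8% of all), and 0 were higher by that much (3.55%). With lists of equal size 9 genes were lower by 10 points (21.5% of all) and the median difference was -2.75, against -1.83 for all genes, and ranked among promoters 13 genes were lower (28.5%) and 5 higher (19.0%). Ndufb10 stood at 44.1 against 71.5 in Q111SST, Ndufa1 at 38.6 against 64.7, and Ndufa5 at 62.7 against 88.1. Ndufa11, an accessory subunit of the membrane arm, was higher, at 97.0 against 89.1, followed by Ndufb3 with a difference of 5.4 and Ndufa2, an accessory subunit, with 1.0.

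DKI was also the list with the narrowest marks, as it was for all genes. The strongest peak was narrowest with DKI in 31 of the 45 genes (55.5% of all genes) and its median width ratio to Q111SST was 0.815, against 0.833 for all genes. The median difference in extent was -249 bp downstream and -92 bp upstream of the start, against -192 and -57 bp for all genes. At least 1.5 times narrower were 2 genes (18.7% of all) and wider 0 (1.32%). The 2 were Ndufa11, 1356 bp against 2400 bp, and Ndufa9, an accessory subunit that binds a nucleotide cofactor, 1110 bp against 1744 bp. The mark of Ndufa11 was thus stronger in rank and narrower in the same list.

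With meclizine the median difference was -1.07 points, against -1.54 for all genes, and under the stricter score it was 0.23 against 0.88. At least 10 points lower were 3 genes (10.0%), Ndufab1 with -15.5, Ndufs5 with -11.1 and Ndufc2 with -10.7, and 0 were higher (4.18%). Ranked among promoters 6 were lower (14.0%) and 6 higher (14.8%), and under the stricter score 4 were lower (10.7%) and 4 higher (18.4%). Ndufs6, an accessory subunit, differed by 5.6, Ndufb6 by 4.0 and Ndufb3 by 3.5. The median width ratio was 0.914 against 0.942, with 0 genes past the limit narrower (4.63%) and 0 wider (3.78%).

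**Figure D5:**
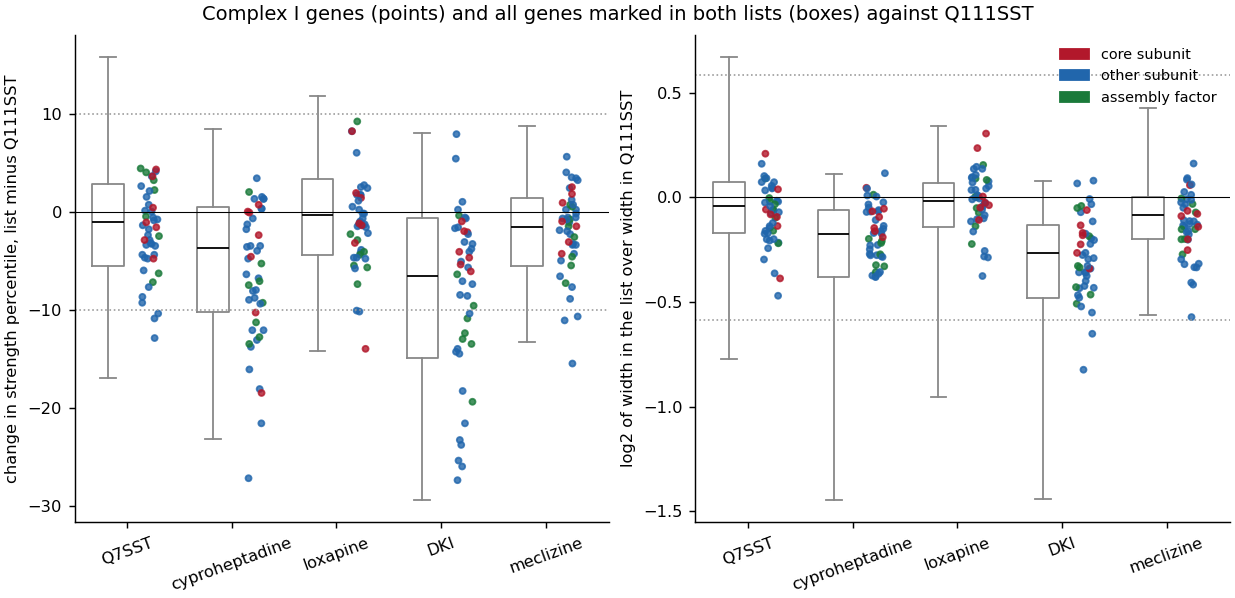
Difference in strength percentile (left) and log2 width ratio (right) against Q111SST for the 45 complex I genes (points) in 5 lists, beside boxes of all genes marked in both lists (median, middle 50%, whiskers from the 5th to the 95th percentile), with dotted lines at 10 points and 1.5 times. No point lies above the upper dotted line in any list, and the lowest points are Ndufb10 at -27.2 with cyproheptadine and -27.4 with DKI.

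Across the 4 compounds, 20 of the 45 genes had a lower percentile than in Q111SST in each list, against 34.3% of all genes marked in the 5 lists. Ndufb3 was higher in each of the 4 (7.15% of all genes), at 83.7 in Q111SST and 80.4 in Q7SST, and 89.1 under DKI, 87.2 under meclizine, 91.9 under loxapine and 87.1 under cyproheptadine. Ranked among promoters 18 genes were lower in each of the 4 lists (24.5% of all) and 5 were higher (15.5%), which were Ndufa10, Ndufb3, Ndufb4, Ndufb11 and Ndufv2. Past the 10 point limit in all 4 lists were 0 genes lower (1.84% of all) and 0 higher (0.319%). Ranked among promoters, the median differences were -1.02 in Q7SST, -9.4 under cyproheptadine, -4.18 under loxapine, -5.21 under DKI and -0.65 under meclizine, and those of all genes were 0.69, -2.59, -0.63, -2.53 and -0.12 in the same order. On both scales the complex I median lay below that of all genes with cyproheptadine and loxapine and in Q7SST, while with DKI and meclizine it lay above on the scale of the whole list and below among promoters, and also below for both under the stricter score and for DKI with lists of equal size.

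Assembly factors and subunits were set side by side in the same comparisons. The median difference of the 8 assembly factors was 0.81 in Q7SST, -8.39 under cyproheptadine, -4.21 under loxapine, -11.69 under DKI and -2.06 under meclizine. For the 37 subunits it was -2.39, -4.63, -1.15, -5.14 and -1.0 in the same order. All 8 assembly factors were lower with DKI (78.3% of all genes), 7 with cyproheptadine (72.3%), 7 with loxapine (53.3%), 6 with meclizine (64.6%) and 4 in Q7SST (58.1%). At least 10 points lower were 5 of 8 with DKI (38.8% of all genes) and 3 of 8 with cyproheptadine (25.9%), and 11 and 10 of the 37 subunits. Widths of the classes differed in no constant direction, and the subunit median minus the assembly factor median ran from -236 bp in Q7SST to 76.5 bp with cyproheptadine and changed sign under the stricter score with cyproheptadine and DKI.

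The lists were checked against markers of the labelled cell type and of others. Of the striatal lineage markers 6 of 8 were marked in all lists (Dlx1, Dlx2, Dlx5, Foxp1, Ebf1 and Meis2), while Gsx2 and Bcl11b were marked in Q7SST and in none of the 5 lists of the mutant line. Of 4 neural progenitor markers 1, Vim, was marked in all 6 while Nes, Sox2 and Pax6 were each missing from 1 or 2 lists. Of mature striatal neuron markers 0 of 5 were marked in all lists and 3 (Drd1, Drd2 and Rbfox3) in none, while Ppp1r1b was marked in 4 lists and Adora2a in Q7SST alone. Of the glial markers Gfap was marked in 5 lists, Mbp in 1 and Olig2 in none. Microglial, endothelial, liver and heart markers were marked in none. The lists held between 30758 and 45564 peaks, and with lists of equal size the median difference of all genes from Q111SST was -1.83 in place of -6.59 for DKI, -2.57 in place of -0.36 for loxapine, and -1.03 in place of -3.74 for cyproheptadine. Read totals were not used here, and the part of depth in the differences between lists was not tested.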

How the data were processed

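Per the labels, formaldehyde-fixed chromatin of STHdh cells was cut with MNase, H3K4me3 nucleosomes were immunoprecipitated and single-end reads were sequenced. The authors deposited 1 peak list per condition, with a whole-number score per peak whose lowest value was 10 and whose scale is not stated. The submitters' processing notes name mm10, Trimmomatic 0.36, Bowtie2, SAMtools 1.3 and MACS2. Peak thresholds, input control and read totals are not given in the sources used here, and the depth is unknown. The deposited score was used to rank peaks within a list. Only the stricter score set 1 cut on it, at 47, across all lists, and whether their scales match is not known. No peak passed a chromosome end of GRCm38 on 21 chromosomes, and coordinates are on that build, counted from 1.

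Groups came from the labels. Scripts in Python 3.11.15 with numpy 2.4.6, pandas 2.3.3, scipy 1.17.1, pysam 0.24.0 and matplotlib 3.10.9 took the strongest peak within 1 kb of any annotated start of each of 21911 genes. The steps were tested on simulated data. Widths and percentiles were compared with Q111SST without a test, since each condition had 1 list. The members and gene lists were chosen with earlier results of these data known. Genes named were the core subunits, all Ndufaf genes, Ndufa4 and Ndufa4l2, unmarked genes, the 3 strongest, weakest, widest and narrowest, and the 3 largest differences each way per list. 1 gene that this rule names counts in the totals and is not reported here. Ndufa9, Ndufb7 and genes with motif letters were named for width or sequence. Alternatives were windows of 0 and 5 kb, a stricter score, lists of equal size, merged peaks, 1 start per gene, ranks among promoters, summed widths and subsets of genes. Columns of positions and scores were used, and peak names and strand were not.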

Additional observations from a re-analysis of the deposited data

How the results depend on the processing

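Of 515 values recomputed under an alternative, 464 stayed within their limit and 51 moved further. The limit was the 95% interval over genes, a Wilson interval for counts of marked genes and of motifs, or 1.5 times for other counts. Counts of 0 under both settings counted as within. So did all 54 strength and all 54 width differences of subunits and assembly factors, whose interval takes its half-width from the range of 8 genes and could hardly be left. Among the 515 values the sign changed in 5, of which 4 stayed within intervals that span 0. The width difference of subunits and assembly factors went from -135.0 to 10.0 (5 kb) and 8.0 bp (stricter score) for DKI and from 76.5 to -14.0 bp (stricter score) for cyproheptadine, and the log2 width ratio for loxapine from -0.005 to 0.002 in genes without a neighbouring start. The strength difference of these classes kept its sign within wide intervals, but rose from 5.0 to 14.6 (Q111SST) and 8.3 to 22.3 (loxapine) among promoters and from 10.1 to 23.1 (cyproheptadine) under the stricter score. Counting peaks within 5 kb marked 46 (Q7SST), 46 (Q111SST), 46 (cyproheptadine), 46 (loxapine), 46 (DKI) and 46 (meclizine) genes, against 60.2% to 64.8% of all, and 1 gene was then at least 1.5 times wider in Q7SST (6.40% of all) and 1 at least 10 points higher with cyproheptadine (4.25%). A stricter score, the pooled median of 47, put the median percentile at 78.5 (Q7SST), 77.0 (Q111SST), 66.2 (cyproheptadine), 73.2 (loxapine), 65.5 (DKI) and 78.6 (meclizine), since weak peaks then leave the ranking. Ranking among marked promoters put it at 70.2 (Q7SST), 67.9 (Q111SST), 59.8 (cyproheptadine), 59.6 (loxapine), 60.8 (DKI) and 68.7 (meclizine), since the reference then holds promoters alone, and lists of equal size at 80.4 for loxapine. The median difference from Q111SST under the stricter score was -11.37 for cyproheptadine, against -7.71 for all genes. For meclizine it was 0.23 and changed sign, as did that of all genes (0.88), and the cause was not tested. Among promoters the median difference was -9.4 for cyproheptadine (all genes -2.59) and -4.18 for loxapine (-0.63). With equal lists it was -3.93 for loxapine (-2.57) and -2.75 for DKI (-1.83). Genes at least 10 points lower, beside the share of all genes, numbered 6 (Q7SST, 17.3%), 23 (cyproheptadine, 44.4%) and 6 (loxapine, 16.6%) under the stricter score, 10 (Q7SST, 17.8%), 11 (loxapine, 18.6%) and 6 (meclizine, 14.0%) among promoters and 8 (cyproheptadine, 17.2%), 8 (loxapine, 22.3%) and 9 (DKI, 21.5%) with equal lists. Genes at least 10 points higher, 0 in each list in the main count, numbered 6 (Q7SST, 20.7%), 4 (loxapine, 20.4%), 2 (DKI, 10.1%) and 4 (meclizine, 18.4%) under the stricter score, 8 (Q7SST, 22.4%), 4 (cyproheptadine, 16.3%), 4 (loxapine, 17.4%), 5 (DKI, 19.0%) and 6 (meclizine, 14.8%) among promoters and 2 (DKI, 11.3%) with equal lists. Genes without a neighbouring start had a median width of 1395.0 bp with cyproheptadine and a median log2 width ratio of -0.248. In 1 kb windows 12 promoters held the ETS letters (28.6% against 20.1% of all), 34 the SP letters (81.0% against 63.3%) and 13 the TATA letters (31.0% against 29.8%). Starts of protein-coding transcripts alone, an alternative chosen after seeing the data, moved none of these values past its interval. No paired analysis was possible because no condition had a second list. Depth is unknown, so a gene at the edge of a list may depend on it.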

Other observations

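The annotation holds 5 further symbols that begin with Nduf and are not typed protein-coding, which the rule left out. They were chosen after the results of the coding genes were known. Ndufb1-ps, typed as a lncRNA of a bidirectional promoter, was marked in all 6 lists and starts 61 bp from the start of Cpsf2. Its strength was 77.6 in Q111SST and 76.0 in Q7SST, and 68.6 under DKI, 67.9 under meclizine, 77.9 under loxapine and 77.1 under cyproheptadine, within the range of the coding genes of the complex. The peak there was between 1976 bp and 2668 bp wide and cannot be assigned to 1 of the 2 genes.

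Ndufb4c, typed as a processed pseudogene and so an intronless copy of Ndufb4, was also marked in all 6 lists, although its nearest protein-coding start lay 9514 bp away. The widths were 284 bp in Q111SST and 252 bp in Q7SST, and 204 bp under DKI, 285 bp under meclizine, 219 bp under loxapine and 1118 bp under cyproheptadine, in 5 lists far below the 1123 bp of the narrowest coding gene of the complex in Q111SST. Percentiles of 84.9 in Q111SST and 90.9 in Q7SST, and 36.1 under DKI, 83.3 under meclizine, 54.4 under loxapine and 32.0 under cyproheptadine differed more between lists than those of Ndufb4 itself, which stayed between 96.3 and 99.1. Whether reads of Ndufb4 were placed at the copy was not tested. Ndufa11b, Ndufab1-ps and Ndufs6b, the other 3 pseudogenes, were marked in none of the lists.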
